A study of Mus musculus with 8 samples.

Results

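In the hearts of newborn wild-type (WT) mice, 546 regions had a peak of retinoid X receptor (RXR) binding in both hearts examined and lay beside a protein-coding gene, neither inside it nor at its ends. They were chosen by position and by the presence of a peak in both WT hearts. A WT replicate 3 peak was taken when it shared at least 1 bp with a WT replicate 4 peak and its summit lay outside all protein-coding genes, more than 1 kb and at most 20 kb from the nearest gene end. The 546 were 12.5% of the 4377 WT replicate 3 peaks shared with WT replicate 4, and those in turn were part of 19129 peaks called in WT replicate 3. Total hearts at postnatal day 0 were used, and binding was read by ChIP-seq, the sequencing of DNA that an RXR antibody precipitates from fixed chromatin. The WT hearts were set against hearts of the genotype edKO, whose cardiomyocytes, but not other cells, lacked Rxra and Rxrb (RXRab-/-). There were 2 hearts per genotype, with the numbers 3 and 4, and from each an immunoprecipitate and an input were sequenced. The total heart also holds endothelial cells, fibroblasts, smooth muscle and blood cells, in which the deletion was not made. The sources used here do not give the Cre driver, the strain or the alleles of the controls. Peak lists carry no expression values, so the tissue could not be checked against marker transcripts.

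RXR is a nuclear receptor that works mostly as a partner. It pairs with the peroxisome proliferator-activated receptors (PPAR), the liver X receptors (LXR), the thyroid hormone receptors, the retinoic acid receptors and the vitamin D receptor, and the pairs bind repeats of the hexamer AGGTCA whose spacing differs between partners. In the heart these pairs are known for controlling fuel use, above all the burning and storage of fatty acids, and for the change of contractile proteins around birth under thyroid hormone. Binding sites of nuclear receptors lie at promoters, inside genes and in the sequence between genes, where they can act as enhancers.

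A few of the 546 regions could be shown as sequence, because their summit fell in a RefSeq promoter window (250 bases before to 50 after the start of an entry, assembly GRCm38.p6). Their summits lay more than 1 kb from any protein-coding gene end, so the windows belong to other entries of the gene table. Of the 546 summits, 11 lay in such a window. The windows printed are those of 2 strong regions beside a stress-response and a sarcomere gene and of 3 regions in which the hexamer or a repeat of it was found. Each is printed 5′ to 3′ on the strand of the entry, in lower case, with a match to AGGTCA on either strand, or a repeat, in capitals. The name is the entry, with the nearest protein-coding gene, the strand and the position.
Gm9530 (Ier5, minus strand, chr1:155083215-155083514): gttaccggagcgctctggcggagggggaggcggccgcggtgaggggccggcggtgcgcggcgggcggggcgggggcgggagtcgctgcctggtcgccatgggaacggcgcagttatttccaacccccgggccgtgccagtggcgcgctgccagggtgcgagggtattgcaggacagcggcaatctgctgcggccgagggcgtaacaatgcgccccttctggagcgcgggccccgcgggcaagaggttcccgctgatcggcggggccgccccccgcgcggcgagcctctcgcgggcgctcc
C130080G10Rik (Actc1, plus strand, chr2:114054146-114054445): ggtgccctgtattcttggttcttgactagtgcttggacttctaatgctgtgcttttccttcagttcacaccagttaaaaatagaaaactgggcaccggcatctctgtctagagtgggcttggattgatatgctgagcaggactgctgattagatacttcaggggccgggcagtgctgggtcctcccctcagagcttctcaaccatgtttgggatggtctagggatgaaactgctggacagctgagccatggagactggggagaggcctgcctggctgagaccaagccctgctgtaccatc
Gm39486 (Slc38a10, minus strand, chr11:120164592-120164891): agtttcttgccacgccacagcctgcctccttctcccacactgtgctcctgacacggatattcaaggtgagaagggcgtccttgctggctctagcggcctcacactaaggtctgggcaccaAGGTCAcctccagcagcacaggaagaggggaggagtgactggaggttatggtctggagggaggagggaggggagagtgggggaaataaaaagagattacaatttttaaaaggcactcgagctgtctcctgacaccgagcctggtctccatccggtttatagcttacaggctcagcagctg
Gm42190 (Cp, minus strand, chr3:19953905-19954204): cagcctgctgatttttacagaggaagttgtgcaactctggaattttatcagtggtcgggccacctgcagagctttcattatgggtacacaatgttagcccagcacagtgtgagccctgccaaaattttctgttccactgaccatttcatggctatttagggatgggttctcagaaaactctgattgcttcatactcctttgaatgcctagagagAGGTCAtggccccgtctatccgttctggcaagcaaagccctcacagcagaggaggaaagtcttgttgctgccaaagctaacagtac
9630013D21Rik (Cdkn2c, minus strand, chr4:109657534-109657833): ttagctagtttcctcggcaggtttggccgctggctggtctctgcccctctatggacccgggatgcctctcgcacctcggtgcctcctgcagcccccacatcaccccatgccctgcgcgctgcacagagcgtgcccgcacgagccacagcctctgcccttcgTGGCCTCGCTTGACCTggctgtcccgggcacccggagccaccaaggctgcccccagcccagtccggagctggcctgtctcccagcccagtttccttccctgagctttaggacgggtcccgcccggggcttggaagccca
The window of Gm9530 held the summit of the region beside Ier5, an immediate early gene, at base 200. Its fold enrichment was 33.9 in WT replicate 3 and 21.9 in the other WT heart, and the window held no hexamer. The window of C130080G10Rik held at base 4 the summit of the region beside Actc1, the cardiac actin gene, with fold enrichments of 19.9 and 9.63 and again no hexamer. In the window of Gm39486 the hexamer began at base 121, the summit base itself, with fold enrichments of 9.47 and 5.41. In the window of Gm42190, beside the ceruloplasmin gene Cp, the hexamer began at base 215, 13 bases from the summit, with fold enrichments of 18.7 and 5.16. The window of 9630013D21Rik, beside the cell cycle inhibitor gene Cdkn2c, held a direct repeat of the hexamer with a spacing of 4 bases (DR4, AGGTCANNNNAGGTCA) with 1 mismatch at bases 162 to 177, while the summit lay at base 275. DR4 is the arrangement known for thyroid hormone receptor and LXR pairs.

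Taking 1 window per region, the hexamer was found on either strand in 5 of the 11 (45.5%). Some summits lay in more than 1 window, and of all 13 windows that held a summit of the 546 regions 7 had the hexamer (53.8%), beside 16.3% of all 32851 promoter windows of this length. Windows that held the summit of any of the shared regions had it in 19.8% of 1014. Direct repeats with spacings of 0 to 5 bases and the inverted repeat without spacing were searched on both strands. Without a mismatch, no window of the 13 held any of them. With up to 1 mismatch, 2 of the 13 windows did (15.4%), or 1 of the 11 regions, beside 1.87% of all windows. Of the 1014 windows with the summit of any shared region, 2.76% did. A DR4 with up to 1 mismatch was held by 0.25% of all windows and by 0.592% of those 1014. These shares rest on few windows, some of which overlap. They say nothing of the other 535 regions, whose sequence was not used here.

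MicroRNA genes were also among the nearest non-coding neighbours. The summit of a region on the 3′ side of Zswim4 lay 505 bp from the hairpin of Mir23a, the first of a cluster with Mir27a and Mir24-2. Its fold enrichment was 7.95 in WT replicate 3 and 5.84 in WT replicate 4, with 29 and 19 fragments. A region beside Tlcd2, inside the host transcript Mir22hg, had its summit 583 bp from the hairpin of Mir22, with fold enrichments of 7.95 and 4.29. The miR-22 and miR-24 families are known in heart muscle and the miR-23 and miR-27 families in endothelium. Their mature 3p sequences from RefSeq are shown to identify these products, with the seed (bases 2 to 8) in capitals.
mmu-miR-23a-3p (plus strand, chr8:84208563-84208583): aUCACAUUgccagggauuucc
mmu-miR-27a-3p (plus strand, chr8:84208727-84208747): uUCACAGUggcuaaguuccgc
mmu-miR-24-3p (plus strand, chr8:84208875-84208896): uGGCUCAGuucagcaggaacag
mmu-miR-22-3p (plus strand, chr11:75463772-75463793): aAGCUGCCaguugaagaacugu
No seed was shared among these 4, although UCACAUU of miR-23a and UCACAGU of miR-27a open alike. ChIP-seq gives the position of binding near the genes and no level of the microRNAs.

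The peak statistics gave the depth behind each value. The authors' fold enrichment was read as the ratio of the fragments stacked at a summit to the local background, with the same small constant added to both. The number of fragments was recovered from this fold and from the −log10 p. The lowest local background of the WT hearts was 2.48 (replicate 3) and 2.32 (replicate 4) fragments per position, and that of the edKO hearts 3.11 and 2.96. These are minima over lists of 19129 and 4697 peaks in WT and of 8 and 127 in edKO, so the edKO minima need not be the floor of their libraries. In the 546 regions the summit held a median of 39.5 fragments (11 to 244) in WT replicate 3 and 24 (13 to 179) in the other WT heart. The lowest number, 11 fragments, carries a wide counting error, so order among weak regions was not read. These intervals and counts cover counting error only, since the sources used here do not say whether duplicates were removed.

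The 546 regions had a median fold enrichment of 10.1 in WT replicate 3, with quartiles of 7.16 and 14.8 and a range of 2.85 to 65.7. In WT replicate 4 the median was 6.29, with quartiles of 5.08 and 8.72 and a range of 3.27 to 51.0. Since presence of a peak in both hearts chose the regions, these levels are a description. Shared regions within 1 kb of a gene end had medians of 8.75 and 5.91, those inside genes 9.54 and 6.13, and those over 20 kb from genes 9.81 and 6.13, so the middle of the distribution was similar at all positions. WT replicate 4 gave the lower value in most regions: its fold enrichment was above that of WT replicate 3 in 74 of 546 (13.6%), against 17.8% of all shared regions. The median ratio of WT replicate 3 to WT replicate 4 was 1.52 (0.438 to 5.54). Across the 546 regions, Spearman's rho between the hearts was 0.598, as a description over regions that share both libraries. Summits of the hearts lay a median of 33 bp apart, within 50 bp in 360 regions (65.9%) and within 100 bp in 472 (86.4%). In 3 regions the WT replicate 4 partner also overlapped another WT replicate 3 peak.

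Strength was uneven. Where a pair of fold enrichments is given for a region, the first is that of WT replicate 3 and the second that of WT replicate 4. Only 14 of 546 regions reached 20-fold in both WT hearts, 82 (15.0%) reached 10-fold in both, and 22 lay under 5-fold in both. By the mean of the WT folds the highest was the region on the 5′ side of Elovl5, an elongase of long-chain polyunsaturated fatty acids, at chr9:77910198-77911495, 6664 bp from the gene. It had 244 fragments at the summit in WT replicate 3 (Poisson interval 214 to 277) and 174 in WT replicate 4 (149 to 202), and fold enrichments of 64.9 and 51.0. In edKO replicate 4 a peak of 13.4-fold with 52 fragments was called there, and edKO replicate 3 had none. The region on the 5′ side of Klf9, a thyroid hormone-responsive transcription factor gene, at chr19:23134035-23136350, had fold enrichments of 65.7 and 48.4, the first above that of Elovl5. It was the widest member, at 2316 bp in WT replicate 3, and lay inside the non-coding entry 2410080I02Rik. The summits of the hearts were 1015 bp apart here, the largest separation among the 546, and edKO replicate 4 had separate peaks of 13.1-fold and 7.47-fold inside it. The Klf9 region was also bound in edKO replicate 3, at 6.55-fold.

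The desaturase cluster held 3 of the 10 strongest regions, at ranks 4, 7 and 9. Beside Scd1, which encodes a stearoyl-CoA desaturase that makes monounsaturated fatty acids, the region at chr19:44388376-44389183 had fold enrichments of 47.7 and 36.2, with 179 and 123 fragments. The neighbouring gene Scd2 had a pair of such regions. The one at chr19:44283879-44284773, 9423 bp from Scd2, had 42.8 and 32.4, and the one at chr19:44314280-44314995, 7705 bp from Scd2 on the way to Scd4, had 41.6 and 25.1. These 3 regions of the desaturase cluster differed in the edKO lists: edKO replicate 4 had peaks of 9.62-fold at the Scd1 region and 11.4-fold at the first Scd2 region, and no peak at the second.

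Strong regions beside genes of other roles were of similar height. The region 1466 bp on the 5′ side of Eef2, the elongation factor of translation, at chr10:81174640-81175481, had fold enrichments of 55.7 and 38.7, and 10.6 in edKO replicate 4. The one at chr19:5844693-5846028 counted under Frmd8 but lay 278 bp from the end of Neat1, a long non-coding RNA that builds nuclear paraspeckles. Its values were 46.4 and 35.5, with 11.2 in edKO replicate 4. The region beside Wnt10a, a Wnt ligand gene, at chr1:74816569-74817295, was 12766 bp from that gene but 125 bp from the transfer RNA entry n-TGgcc3. It had 47.4 and 29.4, with 10.9 in edKO replicate 4. The nearest protein-coding gene is therefore only a label for such regions.

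Among strong regions with no edKO peak, the highest was beside Myl4, the atrial light chain of myosin. At chr11:104589800-104590664 it had 153 fragments in WT replicate 3 and 79 in WT replicate 4, and fold enrichments of 44.2 and 23.3. The region beside Blm, a DNA helicase gene, at chr7:80445328-80446171 had 41.0 and 20.1. Tef, a clock output factor, had 32.1 and 18.4, Wnt7b had 33.3 and 16.9, and Dusp6, a phosphatase of ERK kinases, had 31.9 and 11.6. Regions beside Atp6v1c1 (35.0 and 16.4), Cyp46a1 (36.8 and 12.1) and Josd2 (33.3 and 11.1) were of the same order in WT replicate 3. Hemk1 had 24.5 and 19.5, and Spen, a corepressor of nuclear receptors and Notch, had 25.7 and 18.1.

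The remaining members of the 25 strongest had a peak in edKO replicate 4, except Pdzd2 and the Ier5 region. The Ier5 region, with 33.9 and 21.9 in the WT hearts, had no peak in either edKO heart. Spred2, an inhibitor of ERK signalling, had fold enrichments of 38.2 and 23.3 in the WT hearts and 6.82 in edKO replicate 4. Slc25a4, which encodes the ADP/ATP carrier of heart mitochondria, had 36.7 and 19.6, and 5.81 in edKO replicate 4. The region between Polr3gl and Txnip, at chr3:96573756-96574561, had 41.3 and 11.4, and 6.32 in edKO replicate 4. Pdk4, the kinase that turns off pyruvate dehydrogenase, had 28.1 and 22.3 at chr6:5509285-5510236, and 7.67 in edKO replicate 4. F3, which encodes tissue factor, had 30.5 and 19.5, and 6.32 in edKO replicate 4. Pdzd2 was the one region of the 25 with the higher value in WT replicate 4, at 19 and 26.

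**Figure D1:**
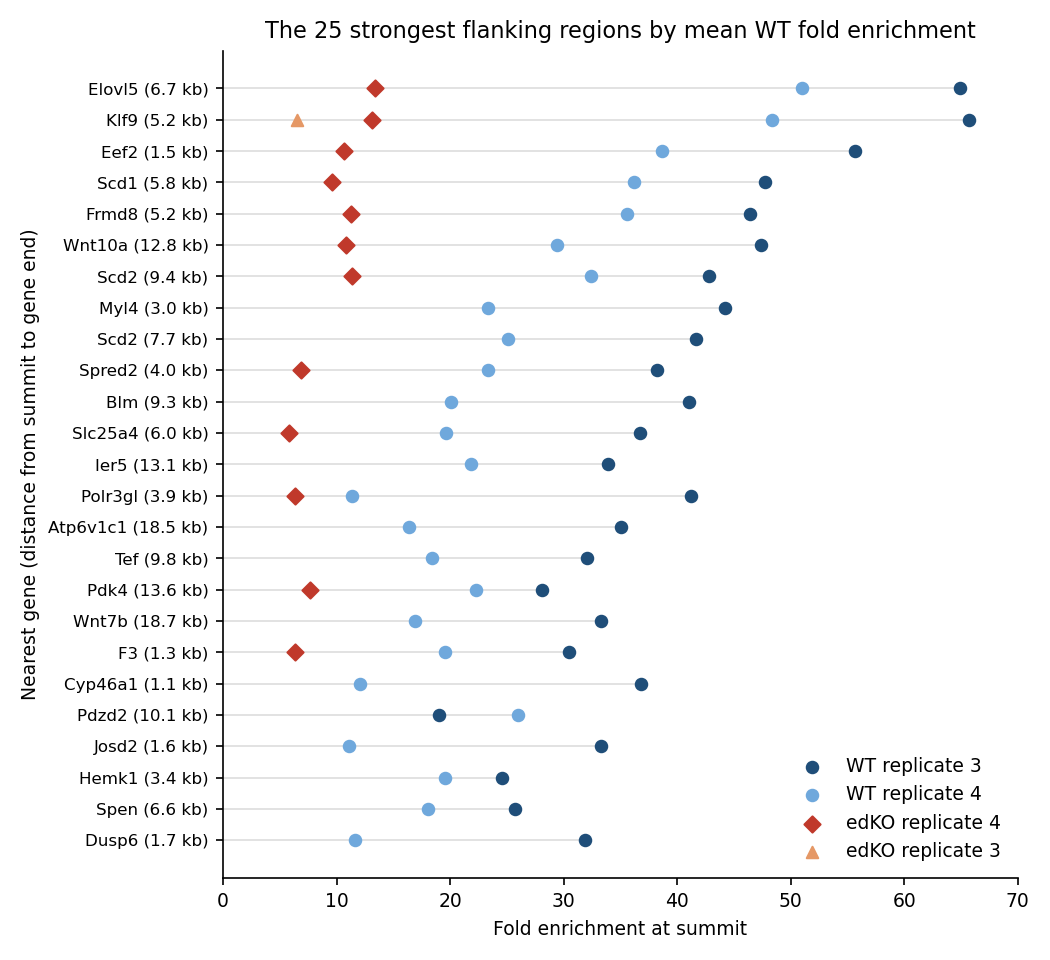
Fold enrichment at the summit (x axis) of the 25 flanking regions with the highest mean over the WT hearts, 1 row per region with the nearest gene and its distance in kb. Circles are the WT hearts, diamonds edKO replicate 4 and the triangle edKO replicate 3, each drawn only where a peak was called; 12 rows have a diamond, all left of both circles.

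The hearts differed in some regions by more than others. Chosen after their values were seen, the highest ratio of the WT replicate 3 fold to the WT replicate 4 fold was in the region beside Il1b. It had 28.1 against 5.08 (97 against 41 fragments), and Gna13 followed with 21.2 against 4.03 (73 against 24 fragments). The region between Kcnh2, a potassium channel gene of cardiac repolarization, and Nos3, the endothelial nitric oxide synthase gene, had 32.7 against 6.77 (113 against 48 fragments). In each of these regions the fragments differed by a smaller factor than the folds, which also depend on the local background. Among those in the other direction were Zbtb16 with 4.09 against 9.34, Mybpc1 with 4.31 against 8.75, and the region beside Abtb1 and the monoacylglycerol lipase gene Mgll with 8.73 against 16.0.

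**Figure D2:**
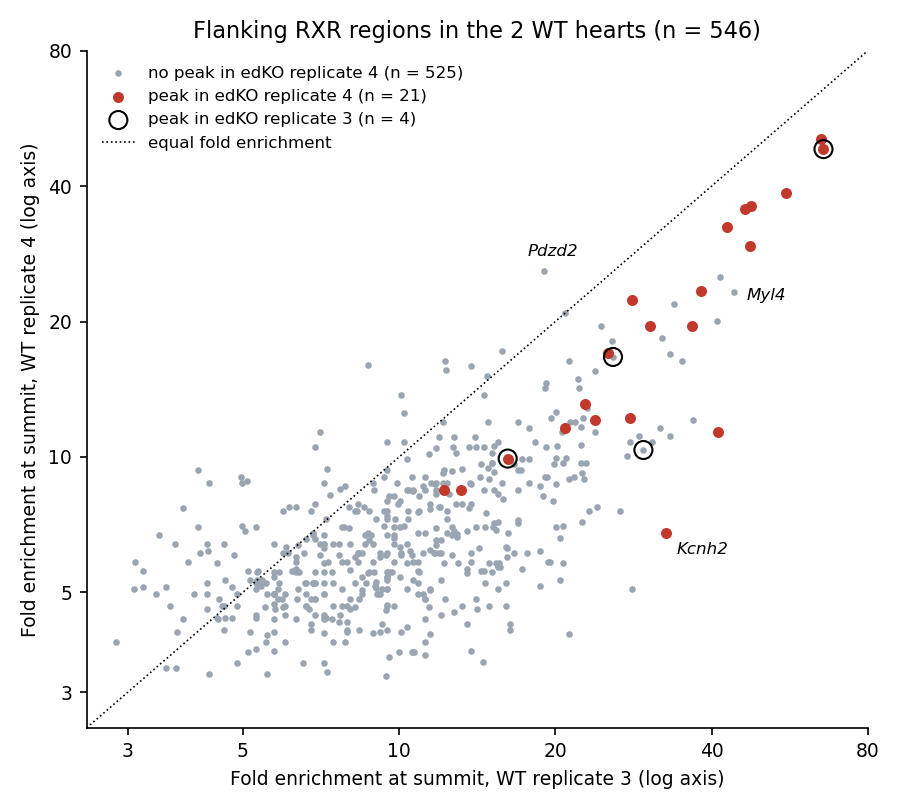
Fold enrichment at the summit in WT replicate 3 (x axis) and WT replicate 4 (y axis), both on log axes, for the 546 flanking regions. Red points have a peak in edKO replicate 4 (21 regions), black circles a peak in edKO replicate 3 (4 regions), and the dotted line marks equal values; most points lie under the line, and red points gather at the upper right.

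In the edKO hearts few of these regions had a peak, and those that did were mostly the strongest in WT. In edKO replicate 4, 21 of 546 (3.85%, Clopper-Pearson 95% interval 2.40 to 5.82%) overlapped a peak, beside 2.86% of all shared regions. In edKO replicate 3, 4 of 546 did (0.733%, 0.2 to 1.87%), beside 0.183% of all shared regions, and these were the regions of Klf9, Cipc, Tpt1 and Ak1. The edKO lists had no part in choosing the regions. The share in edKO replicate 4 was 3.13% of shared regions at gene ends, 2.69% inside genes and 1.72% over 20 kb from genes. Each of these lay within the interval of the flanking share except the last, and regions of 1 heart are not replicates, so the differences were not tested. For edKO replicate 3 the counts were 3 of 1628 at gene ends, 1 of 1562 inside genes and 0 of 641 far from genes.

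The share followed the strength in WT. All shared regions were ranked by the mean of the WT folds and divided into 4 groups of equal size, group 4 being the strongest. Groups 1 and 2 held 118 and 127 flanking regions, none with a peak in edKO replicate 4 (upper limits of 3.08 and 2.86%). Group 3 held 150 with 2 such peaks, and group 4 held 151 with 19 (12.6%, 7.75 to 18.95%). In the same group 4, 13.6% of regions at gene ends, 10.4% inside genes and 6.79% far from genes had one. Among the 100 strongest shared regions at any position, 11 of 17 flanking and 27 of 38 gene-end regions had one. Inside genes it was 20 of 36 and far from genes 7 of 9. Of the 10 strongest flanking regions 8 had a peak in edKO replicate 4, of the 25 strongest 12, and of the 50 strongest 17. The weakest by rank was that of Angptl4, at rank 175, and the median rank was 17. The 2 in group 3, Angptl4 and the region beside Gm5785, were the only ones of 1094 shared regions at that strength, at any position.

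**Figure D3:**
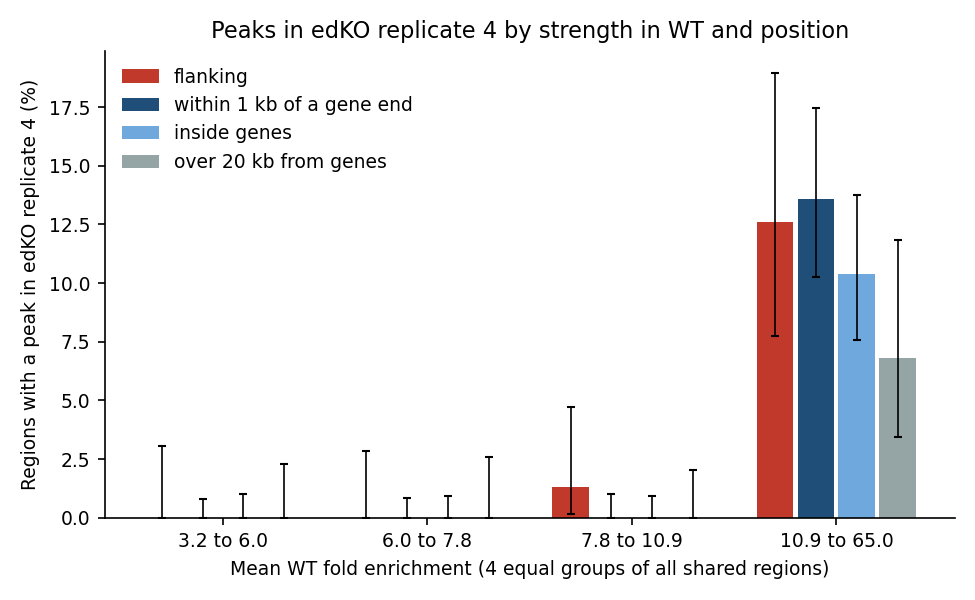
Percentage of shared WT regions with a peak in edKO replicate 4 (y axis) in 4 equal groups of all shared regions by mean WT fold enrichment (x axis), for each position class. Bars are shares with Clopper-Pearson 95% intervals; in the strongest group the flanking share was 12.6%, and the intervals of the classes overlap.

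Where an edKO peak was called, it was weaker than in WT. Over the 21 regions the median fold was 6.82 in edKO replicate 4 (3.66 to 13.4), 32.7 in WT replicate 3 and 19.5 in the other WT heart. The 525 regions without such a peak had medians of 9.76 and 6.13 in the WT hearts. The edKO fold lay under both WT values in 20 of the 21, the exception being the Kcnh2 region, with 6.82 against 6.77 in WT replicate 4. The number of fragments at the summit, 18 to 52 in edKO replicate 4 with a median of 26, was under both WT numbers in 21 of 21. Folds were computed against each list's own background and a peak had to pass a threshold within its list, so a missing peak does not show that a region was unbound.

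Beside the regions already named, Leo1, a subunit of the Paf1 complex of transcription, had a peak of 9.09-fold in edKO replicate 4, against 25.3 and 17 in the WT hearts. The region beside Atp2a2, the calcium pump of the sarcoplasmic reticulum, had 4.80-fold there, against 22.8 and 13.1. The region of Sfi1 had 6.57-fold and lay in the pseudogene entry Pisd-ps1, so that reads of near-identical copies could have been placed there, and its value is uncertain for that reason. Ak1 and Eng, the adenylate kinase and endoglin genes, flank a region at chr2:32637654-32638342 with 16.2 and 9.92 in the WT hearts, 5.13 in edKO replicate 3 and 5.81 in edKO replicate 4. It and the Klf9 region were the 2 with a peak in all 4 hearts. In edKO replicate 3 the Cipc region, beside a clock-interacting repressor, had 7.73-fold and the Tpt1 region 5.34-fold.

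Peaks at flanking positions were also counted in each heart by the peak's own summit. WT replicate 3 had 2409 (12.6% of its list), WT replicate 4 had 598 (12.7%), edKO replicate 3 had 4 of 8 and edKO replicate 4 had 22 of 127 (17.3%, 11.2 to 25%). The WT mean of 1503.5 ± 1281 (SD, n = 2) compared with 13 ± 12.7 in edKO (SD, n = 2), a ratio of 116, and the groups did not overlap. An exact two-sided permutation test gave p = 0.333, the smallest that 2 hearts against 2 allow. The SD of the WT hearts was nearly as large as the difference of 1490.5, and their values of 2409 and 598 lay further apart than that difference. All 4 and all 22 edKO peaks at flanking positions overlapped peaks of both WT hearts and belonged to the 546 regions, the Klf9 region holding 2 of the 22. Fewer bound cells and less binding per cell cannot be told apart in a whole heart, and nor can binding that remains in cardiomyocytes and binding in other cells.

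The 546 regions thinned out with distance from genes. Flanking positions make up 13.8% of the annotated span of 2600 Mb and held 12.5% of the shared regions (11.5 to 13.5%). Per Mb of available sequence there were 2.60 regions at 1 to 2 kb (82 regions), 1.71 at 2 to 5 kb (138), 1.43 at 5 to 10 kb (148) and 1.24 at 10 to 20 kb (178). Beyond 20 kb the density was 0.545, and outside genes within 1 kb of an end 19.6. Within genes it was 2.43, counting all 2503 regions with a summit in a gene, also those within 1 kb of an end. The class inside genes used elsewhere leaves the latter out and holds 1562 regions, so the 2.43 is not its density. The median distance was 6546 bp, from 1003 to 19549 bp, a range set by the selection. The fold enrichment showed no such slope, with medians in WT replicate 3 of 9.51, 11.5, 10.6 and 9.47 over the same distances. Of 2409 WT replicate 3 peaks at flanking positions, 22.7% were shared with WT replicate 4 (21.0 to 24.4%), compared with 27.3% at gene ends, 20.5% inside genes and 20.5% far from genes.

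The side of the gene could be read for 418 regions (76.6%), where the promoter table gives the strand. The 5′ side held 222 of them (53.1%, 48.2 to 58.0%), and 53.7% of the available sequence was on the 5′ side, close to the share of regions. Close to genes, at 1 to 2 kb, there were 42 on the 5′ side (3.25 per Mb, Poisson interval 2.35 to 4.40) and 20 on the 3′ side (1.63 per Mb, 0.998 to 2.52). At 5 to 10 kb the values were 1.22 and 1.53 per Mb, and the intervals overlapped at each distance.

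**Figure D4:**
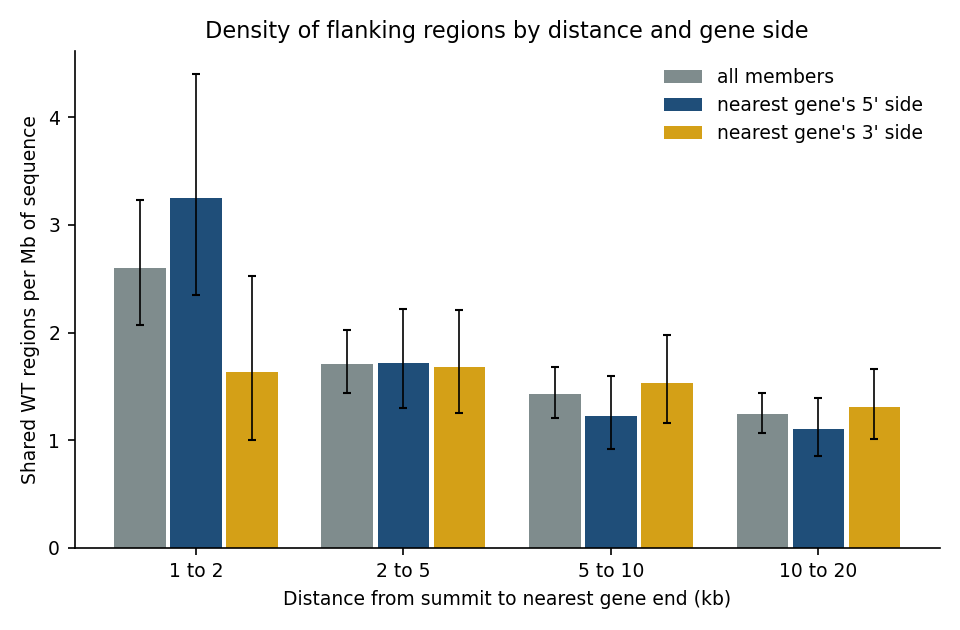
Shared WT regions per Mb of available sequence (y axis) by distance from the nearest gene end in kb (x axis), for all 546 regions and by side of the nearest gene where its strand was known. Bars are densities and lines exact Poisson 95% intervals, which cover counting error only; the 5′ side at 1 to 2 kb is the highest at 3.25 per Mb.

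The limits of the selection fell inside a continuum. The members nearest the inner limit were those of Nrp1 (1003 bp, 7.45 and 3.87) and Plxnd1 (1007 bp, 11.1 and 4.97), and just inside that limit, left out, were Plekhb1 (988 bp, 24.3 and 10.6) and Pcdh7 (986 bp, 6.88 and 8.75). Nearest the outer limit were Rpgrip1l (19549 bp, 8.90 and 5.84) and Blm (19435 bp, 5.74 and 4.36), and beyond it, left out, Plin2 (20094 bp, 15.4 and 9.63) and Ifnar1 (20152 bp, 8.21 and 6.46). By chromosome, flanking regions were 18.5% of the shared regions of chromosome 15 (40 of 216) and 6.64% of those of chromosome 1 (17 of 256), the ends of the range.

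Many of these regions were close to further binding. The next shared region lay a median of 33181 bp away, compared with 55727 bp for all shared regions, and within 10 kb for 148 (27.1%). The 546 regions had 484 nearest genes, of which 438 had 1 region, 32 had 2, 12 had 3 and 2 had 4. Of the 484 genes, 152 (31.4%) also had a shared region inside them or within 1 kb of an end, beside 13.1% of all protein-coding genes. A second gene lay within 20 kb of 217 regions (39.7%). The gap between genes that held a region had a median of 41.3 kb and was flanked by genes in tandem in 173 cases, divergent in 104 and convergent in 71, with strand unknown in 198. The summit lay inside a long non-coding RNA entry in 113.

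The genes with at least 3 regions that were named by rank differed in how strength was spread over them. Hes1, a Notch target and repressor, had 4, on both sides, with fold enrichments in WT replicate 3 of 7.18, 11.2, 14.1 and 8.75 and in WT replicate 4 of 6.27, 3.87, 10.5 and 5.55. Zswim4 had 4 on its 3′ side, from 6.32 to 10.4 and from 4.36 to 8.46, of which the one nearest Zswim4 was also the one near the Mir23a cluster. The Frmd8 side of Neat1 held 3, with 46.4, 7.69 and 4.13 in WT replicate 3 and 35.5, 8.47 and 6.13 in WT replicate 4. Spen had 3 within its 5′ side, with 25.7, 8.94 and 5.74 in WT replicate 3. Kcnh2 had 3, with 14.6, 18.7 and 32.7 in WT replicate 3 and 5.26, 8.60 and 6.77 in WT replicate 4. Irf2bpl (14.6, 23.8 and 9.96 in WT replicate 3), Creld2 (20.1, 7.67 and 11.7) and Gm51791 (6.23, 20.1 and 6.32) completed them.

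The genes beside these regions were grouped by lists of known function. A gene counted when a member's summit lay within 20 kb of its nearer end, which held for 743 of 21887 protein-coding genes (3.39%). The lists are small, their members overlap and neighbouring genes can share a region, so each share stands beside the 3.39% as a description. The lists were also chosen with earlier results of these data known, so their shares are not independent of the data. A region counted for a gene can lie nearer another, as those of Hcn2 (15108 bp, nearer Bsg), Fasn (nearer Dus1l), Mlycd (nearer Osgin1) and Nr4a1 (nearer Grasp) did. The highest share was in thyroid hormone targets, 7 of 15 (46.7%, 21.3 to 73.4%). They were Klf9 (65.7 and 48.4), Adrb1 (21.2 and 16.3), Atp2a2 (22.8 and 13.1) and Hcn2 (15.2 and 10.6), with Thra, Myh7 and Hr between 9.76 and 13.8 in WT replicate 3. Adrb1 encodes the cardiac beta-adrenergic receptor, Hcn2 a pacemaker channel and Thra the main thyroid hormone receptor of the heart. Of these 7, Klf9 and Atp2a2 had an edKO peak. Counting shared regions of any position, inside the gene or within 20 kb, 10 of the 15 thyroid hormone targets had one. Of all protein-coding genes 21.8% did. The 10 include the 7 with a flanking region, so this count cannot tell whether the share was high at other positions.

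PPAR targets followed with 7 of 20 (35%, 15.4 to 59.2%). The strongest were the Txnip region (41.3 and 11.4), Pdk4 (28.1 and 22.3), Fabp3, the fatty acid-binding protein of heart muscle (30.7 and 10.8), and Acot1, an acyl-CoA thioesterase (21.2 and 8.95). Angptl4, the secreted inhibitor of lipoprotein lipase, had 12.2 and 8.46, and 5.05 in edKO replicate 4. The median over the 7 of the mean WT fold was 15.1, compared with 8.69 over the 743 genes. LXR targets had 4 of 15 (26.7%), namely Scd1, Scd2, Fasn (12.1 and 9.19) and Pltp, a phospholipid transfer protein (10.9 and 6.78). Retinoic acid targets had 1 of 15, Tgm2, a transglutaminase, with 13.7 and 8.75. With any position counted, 16 of the 20 PPAR targets and 11 of the 15 LXR targets had a shared region. So had 8 of the 15 retinoic acid targets, beside 21.8% of all protein-coding genes.

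Among lipid genes, fatty acid synthesis, elongation and desaturation had 6 of 24 genes (25%, 9.77 to 46.7%), with the highest median mean fold of any list with more than 1 gene, 35.5. They were Elovl5, Scd1, Scd2, Scd4, Fasn and Fads1 (11.5 and 8.75), of which Elovl5, Scd1 and Scd2 had an edKO replicate 4 peak. Lipid uptake and storage had 5 of 24 (20.8%, 7.13 to 42.2%), led by Fabp3, Fabp4 (22.4 and 10.6), Mgll (8.73 and 16.0) and Angptl4. Fatty acid oxidation had 3 of 24 (12.5%, 2.66 to 32.4%), among them Acot2, an acyl-CoA thioesterase, with 8.97 and 5.16, and Mlycd, which breaks down malonyl-CoA, with 6.57 and 6.13. The intervals of these 3 lists overlapped. Counting shared regions of any position, inside the gene or within 20 kb, 23 of the 24 oxidation genes had one, as had 16 of the 24 synthesis genes and 15 of the 24 uptake genes, beside 21.8% of all protein-coding genes.

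At flanking positions, mitochondrial and glycolytic lists were nearer the share of all genes. Oxidative phosphorylation had 1 of 46 (2.17%), Atp5d, whose region at 22.7 and 8.95 was 15219 bp away with Midn nearer. Pyruvate oxidation with the tricarboxylic acid cycle had 1 of 25, Pdk4. Glycolysis and glucose uptake had 2 of 25 (8%), Slc2a3 at 13.6 and 7.69 and Eno1 at 12 and 7.74. Cytosolic ribosomal protein genes had 0 of 35 (upper limit 10.0%). With any position counted, a shared region was near 16 of the 46 oxidative phosphorylation genes and 13 of the 25 genes of pyruvate oxidation and the cycle. The same held for 12 of the 25 glycolysis and glucose uptake genes and 8 of the 35 ribosomal protein genes, beside 21.8% of all protein-coding genes.

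Among regulators, Klf and clock factors had 6 of 25 (24%): Klf9, Tef, Klf3 (20.4 and 6.60), Bhlhe40 (11.9 and 11.1), and at lower values Klf15 (6.89 and 5.26) and Bhlhe41 (6.82 and 5.26). Nuclear receptors and coregulators had 5 of 37 (13.5%). The Nr1d1 region, beside the clock repressor Rev-erb alpha, had 15.2 and 9.27 and the Thra region 13.8 and 5.84, both between Msl1 and these neighbouring genes. Nr4a3 had 11.7 and 6.13, Nr4a1 8.30 and 7.59, and Ppara 3.08 and 5.08, the last at 22 and 20 fragments. Of all protein-coding genes 3.39% had a flanking region. A shared region at any position was near 18 of the 25 Klf and clock factors and 23 of the 37 nuclear receptors and coregulators. Of all protein-coding genes it was 21.8%.

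Muscle and cardiac regulators were represented too. Sarcomere and calcium handling genes had 6 of 32 (18.8%, 7.21 to 36.4%): Myl4, Atp2a2, Actc1 (19.9 and 9.63), Myh7, the slow myosin heavy chain (12.1 and 6.13), Myl3 (7.18 and 5.81) and Tnnt2 (6.10 and 6.13). Of these 6 genes only Atp2a2 had an edKO peak. Cardiac transcription factors had 3 of 20 (15%), Mef2d with 14.9 and 9.44, Hopx with 8.01 and 7.74, and Nkx2-5 with 7.75 and 5.84. Of all protein-coding genes 3.39% had a flanking region. A shared region at any position was near 21 of the 32 sarcomere and calcium handling genes and 9 of the 20 cardiac transcription factors. Of all protein-coding genes it was 21.8%.

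Markers of cells other than cardiomyocytes were uneven, beside the 3.39% of all protein-coding genes with a flanking region. Endothelial markers had 6 of 20 genes (30%, 11.9 to 54.3%), led by Nos3 (32.7 and 6.77), Eng (16.2 and 9.92), Egfl7 (9.47 and 7.30) and Robo4 (7.46 and 6.42), with Tie1 (7.18 and 4.38) and Kdr (4.59 and 6.42) weaker. The Nos3 and Eng values are those of regions nearer Kcnh2 and Ak1. These had edKO replicate 4 peaks, and the one near Eng an edKO replicate 3 peak as well. The region with Nos3 as its nearest gene, 3732 bp away at chr5:24360854-24361374, had 11.8 and 8.26 and no edKO peak. Blood and macrophage markers had 0 of 20 (upper limit 16.8%), smooth muscle and pericyte markers 0 of 12 (26.5%) and fibroblast and epicardial markers 1 of 20, Loxl1 with 5.87 and 5.55. With any position counted, 11 of the 20 endothelial and 4 of the 20 blood and macrophage markers had a shared region. So had 2 of the 12 smooth muscle and pericyte markers and 4 of the 20 fibroblast and epicardial markers. Of all protein-coding genes 21.8% had one, so only the endothelial list lay well above that share. The cells that carried the edKO peaks were not tested. Cell cycle genes had 3 of 22 (13.6%), which were Mcm5 (21.0 and 9.96, beside Hmox1), Ccnd1 (16.2 and 6.77) and Cdkn1b (12.3 and 8.75). At any position 4 of the 22 cell cycle genes had a shared region, near the 21.8% of all protein-coding genes.

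**Figure D5:**
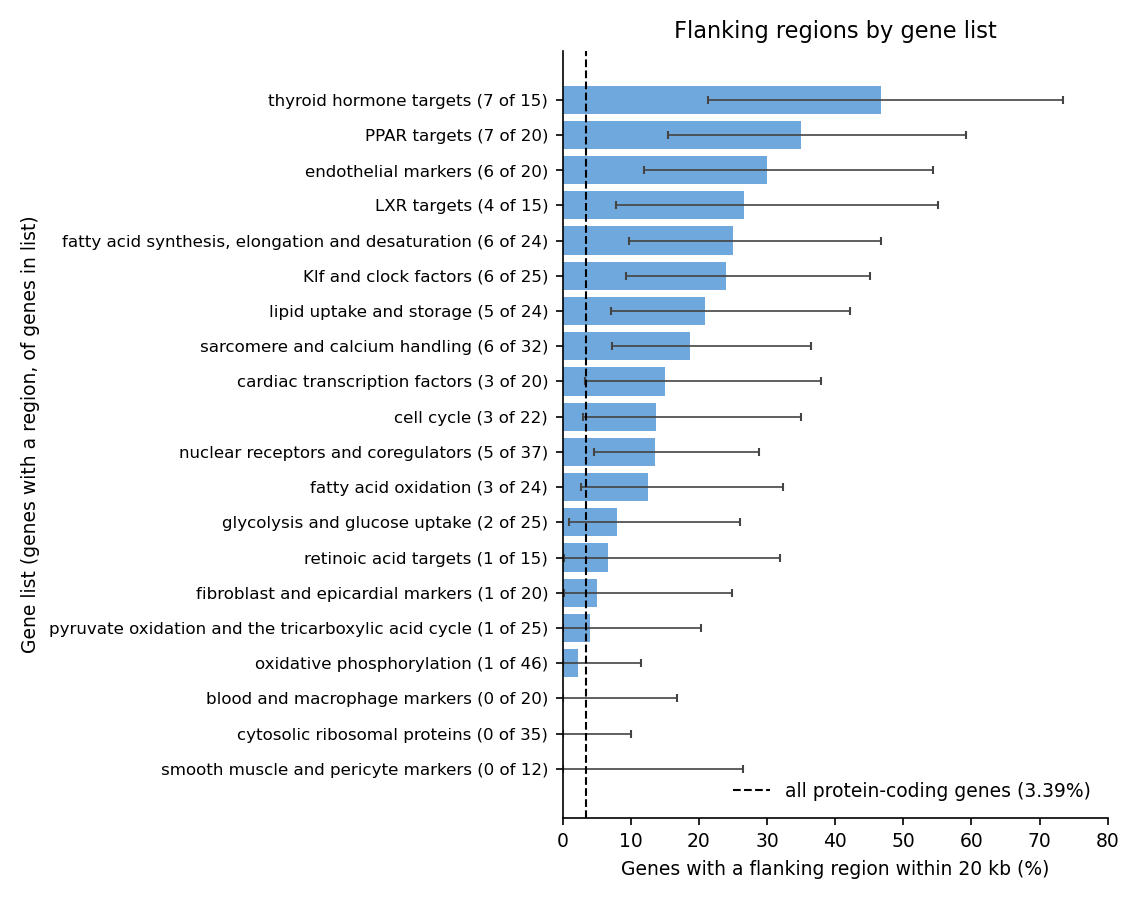
Percentage of the genes of each list with a flanking region within 20 kb (x axis), 1 bar per list with its counts, lines as Clopper-Pearson 95% intervals and the dashed line at the 3.39% of all protein-coding genes. Thyroid hormone targets have the highest share at 46.7%, and 3 lists have none. The lists were chosen with earlier results of these data known.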

How the data were processed

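Fragments of 4 RXR immunoprecipitates and 4 inputs, from total hearts of newborn mice, had been sequenced and peaks called per heart. Per the submitters' processing notes, cutadapt, BWA, SAMtools and MACS3 were used with mm10 (GRCm38), without versions or settings. The labels name both a paired run format and single-end reads. The deposited lists give positions in bp, the authors' fold enrichment (a ratio to local background), −log10 p and −log10 q within each list, and an integer score made from −log10 q, which was not used.

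Gene positions came from the RefSeq table of GRCm38.p6, with 21887 protein-coding genes of 49960 entries on the chromosomes used. All 476 entries of 20 gene lists (447 genes) matched. The members and lists were chosen with earlier results of these data known. Fragments at a summit were solved from fold and −log10 p, whole within 0.02 for 100% of peaks in each list. More than 1 solution was possible for 79.8% of peaks in WT replicate 3 and 16.7% in WT replicate 4. In edKO replicates 3 and 4 it was 12.5 and 72.4%. The solution nearest a whole number was taken, so the 100% comes in part from that choice. Positions are printed 1-based. Python 3.11.15, pandas 2.3.3, numpy 2.4.6, scipy 1.17.1 and matplotlib 3.10.9 were used, and the steps were tested on simulated data. Shares have Clopper-Pearson intervals and peak numbers an exact permutation test. The replicate numbers do not mark a shared litter or day in the labels, so hearts were unpaired.

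Regions named were the 25 strongest by mean WT fold, up to 4 genes per list by strength (others of a list are named beside them), the 12 highest edKO folds, up to 8 genes with at least 3 regions, and the 2 regions nearest each limit. The Tpt1, Sfi1 and Gm5785 regions, the microRNA neighbours, the promoter windows, the regions of the closing observations and the regions on which the WT hearts differed most were chosen after values were seen. Alternatives were other overlaps, thresholds, gene sets, positions and limits, and leaving out each heart. The planned search for repeats at every summit was not run, since no genome sequence was used here. The values of 1 gene in the lists are not reported here.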

Additional observations from a re-analysis of the deposited data

How the results depend on the processing

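Of 53 alternative values over 6 results, 39 kept their direction, stayed within the interval of the reported value or, for counts, within 1.5 times of it. The other 14 moved beyond these limits. Only the difference in peak number between genotypes had a direction that could reverse, and it stayed positive in each alternative. It was judged by direction alone, so 585 and 2396 counted as kept beside 1490.5. The replicate block leaves the mean difference unchanged by construction, so it could not test the direction. Requiring an overlap of 50% of both peaks gave a flanking share of 13.6% of shared regions and 2.77% of genes, and a −log10 p of at least 10 in both WT lists gave 2.52% of genes. With all gene table entries in place of protein-coding genes, the flanking share was 14.4%, with 2.28% of entries. An inner limit of 2 kb gave 10.6%, a median distance of 7900 bp and 2.73% of genes. An outer limit of 10 kb gave 8.41%, 4025 bp and 1.92%. Leaving out either WT heart gave 598 to 2409 regions, flanking shares of 12.6 to 12.7%, shares with an edKO replicate 4 peak of 0.872 to 3.51%, median distances of 6596 to 7039 bp and 3.63 to 12.1% of genes. The lower edKO share and the higher numbers were those without WT replicate 4, which let in all 2409 flanking peaks of WT replicate 3. The difference in peak number between genotypes was 585 without WT replicate 3, 2396 without WT replicate 4, 1481.5 and 1499.5 without an edKO heart. With hearts paired by a replicate block the mean difference was 1490.5 and the exact sign-flip p = 0.5, the smallest that 2 pairs allow. The search for repeats at all summits, with its alternatives of a wider window and 1 mismatch, was not run.

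With 2 hearts per genotype the smallest exact p was 0.333, so the absence of a peak in edKO is a property of each list. Weak regions rest on as few as 11 fragments in WT replicate 3 and 13 in the other WT heart. The weakest peak called anywhere in edKO replicate 4 had 17 fragments, and in edKO replicate 3 it had 24.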

Other observations

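Further flanking regions of moderate strength, chosen after their values were seen, lay beside genes of various roles. The region 1524 bp on the 3′ side of Mb, the myoglobin gene, had a fold enrichment of 26.7 in WT replicate 3 against 7.58 in WT replicate 4, with 92 and 46 fragments. Beside Hmox1, which encodes heme oxygenase, a pair of regions had 21.0 and 9.96, and 9.76 and 6.42. Scarb1, the receptor for high-density lipoprotein, had a region with 27.5 and 10.1. None of these 4 had a peak in either edKO heart. Near Txnip, an inhibitor of glucose uptake, a region 2536 bp on the 5′ side of the gene had 22.6 and 12.2 and no edKO peak. The strongest region between Polr3gl and Txnip, with 41.3 and 11.4, had one of 6.32-fold in edKO replicate 4. Further regions between these genes had no edKO peak, at chr3:96563790-96564446 (15.2 and 7.12) and chr3:96571688-96572367 (20.7 and 5.81). Heg1, a receptor gene of endothelial and heart development, had nearly equal values, 20.8 and 20.9, and Mllt3 had 27.9 and 12.2 with 4.91 in edKO replicate 4.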
